A study of Mus musculus with 18 samples.

Results

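The oxidative phosphorylation subunits studied here are nuclear-encoded proteins of respiratory complexes I to IV and of the ATP synthase, complex V. Members were all genes with a single platform symbol starting with Ndufa, Ndufb, Ndufc, Ndufs or Ndufv but not Ndufaf, with Sdha to Sdhd, or starting with Uqcr, Cox4, Cox5, Cox6, Cox7, Cox8 or Atp5. The rule found 82 genes on 169 probe sets among 18193 genes with a single symbol on the array, and each gene was represented by its probe set with the highest mean. Of these, 35 were counted with complex I, 4 with complex II, 8 with complex III, 18 with complex IV and 17 with ATP synthase. After a filter on dim probe sets, 79 members were tested. Cox7b2, Cox8b and Ndufb4 were too dim on their chosen probe sets.

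Liver RNA came from male C57BL/6J mice, a strain spelled C56BL/6J in another field of the labels, which were 5 weeks old when feeding began and were fed for 20 weeks. The control mice received AIN93G, a purified rodent diet, and the other mice received AIN93G with 0.05% or with 1% quercetin, a plant flavonol. Each diet was given to 12 mice housed 3 per cage, and arrays were made from 6 mice per diet, 1 mouse per array. The labels do not say which mice shared a cage, so p-values measure the spread between mice with any cage effect left in.

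Complexes I to IV of the inner mitochondrial membrane pass electrons from NADH and succinate to oxygen and, apart from complex II, pump protons, and the ATP synthase uses the proton gradient to make ATP. Hepatocytes are rich in mitochondria and depend on this chain for gluconeogenesis, urea synthesis and the oxidation of fatty acids. Most subunits are nuclear-encoded and made in the cytosol, and a few subunits of complex IV exist as isoforms used mainly in heart, muscle, lung or testis.

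Values are log2 of the deposited intensity plus 16, shifted per array so that the median of the 12885 tested genes was equal on all arrays. The shift was needed because that median lay between 6.72 and 7.24 on the values as deposited. Differences between diets are log2 changes ± SE, and a change was called at a Benjamini-Hochberg adjusted p below 0.05 in limma over all tested genes. The hepatocyte genes Alb, Ttr, Apoa1 and Cps1 measured 12.8 or more in every liver. The number of arrays limits the precision, and in whole liver fewer cells of a type and less RNA per cell cannot be told apart.

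No member was called in any of the 3 comparisons, and the diets differed by little. The median log2 change of the 79 tested members was -0.077 when 1% quercetin was set against the control diet, -0.043 for 0.05% quercetin against that diet and -0.029 between the 1% and the 0.05% diet. The same medians over all tested genes were -0.0064, -0.012 and 0.00067. On the values as deposited the member median for 1% against control was -0.13, beside -0.057 over all genes, and after quantile normalization it was -0.045, beside -0.0024. Both comparisons with the control diet use the same 6 control mice. In limma the smallest adjusted p of a member was 0.412 under 1% quercetin and 0.935 under 0.05%, each set against control, and 0.536 between the 1% and the 0.05% diet. Over all genes limma called 1 gene in the first comparison, which was no member (0.00776% of genes), and 0 genes (0%) in each of the other two.

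The members were steady transcripts. Their SD over the 18 livers had a median of 0.106, against 0.234 over all tested genes. Most members were bright, and among genes with a mean log2 value above 10 the median SD was 0.105 for 70 members and 0.162 for all 1357 genes. The SD of single tested members ran from 0.073 for Atp5j2, a subunit of the membrane part of ATP synthase, to 0.45 for Cox6b2, the testis isoform of a complex IV subunit. The median SD by complex was 0.097 for ATP synthase, 0.106 for complex I, 0.112 for complex III, 0.131 for complex IV and 0.136 for complex II. Cox6b2, Cox7a1, Cox4i2 and Cox6a2, isoforms with a dim signal in liver, were the 4 most variable tested members of complex IV.

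**Figure D1:**
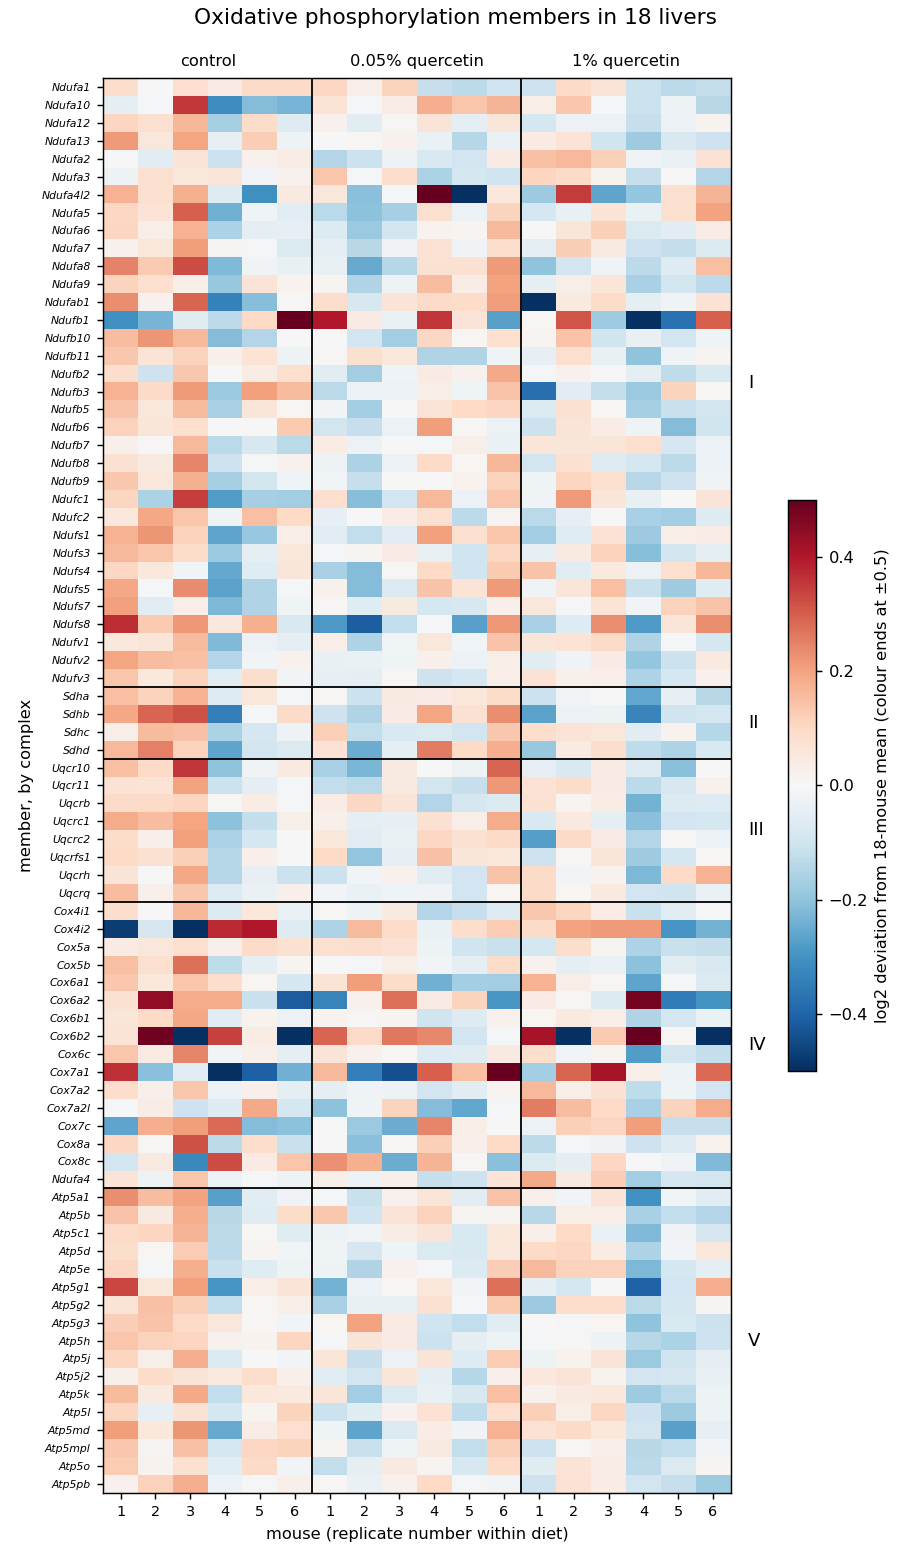
Log2 deviation of each of the 79 tested members from its own mean over the 18 livers, with members as rows grouped by complex and mice as columns grouped by diet; colours end at ±0.5. Control replicate 3 is mostly red and 1% replicate 4 mostly blue, and mice on the same diet differ from each other.

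Under 1% quercetin against the control diet, 63 of 79 members had a log2 change below 0, against 51.7% of all tested genes. At an unadjusted p below 0.05 in limma, 5 members were lower (4.66% of all genes were) and 0 were higher (3.87%). The 5 were Ndufc2, Atp5h, Ndufb3, Sdha and Sdhb, from complexes I and II and the ATP synthase. They are 6.33% of the tested members, close to the share of all genes, and none was called. Leaving out 1 mouse kept between 56 and 68 of 79 members below 0, and after quantile normalization 56 were. The 5 lower members became 10 without control replicate 4 and 2 without control replicates 1 or 3 or 1% replicate 4. They became 3 without control replicate 2 or 1% replicates 5 or 6, each mouse left out alone. The 0 higher members became 1 without control replicate 1 or 1% replicate 1.

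Ndufc2 encodes an accessory subunit of the membrane arm of complex I. Its lowest, median and highest log2 values were 11.79, 11.92 and 12.00 in control livers, 11.67, 11.81 and 11.88 under 0.05% and 11.63, 11.70 and 11.80 under 1% quercetin. The 1% and control ranges met only at their edges. The log2 change for 1% against control was -0.20 ± 0.066 (limma adjusted p = 0.412), with 6 of 6 mice below the control mean. The 3 other Ndufc2 probe sets above the filter ranged from -0.16 to 0.10, so they did not share a sign.

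Atp5h encodes subunit d of the peripheral stalk that holds the ATP synthase head in place. It measured 12.61, 12.70 and 12.73 (lowest, median, highest) in control livers, 12.48, 12.57 and 12.65 under 0.05% and 12.43, 12.52 and 12.59 under 1% quercetin. All 6 mice on 1% lay below all 6 controls, which held for no other member and for 0.248% of all tested genes. No member had all mice on 1% above all controls, as 0.233% of genes did. The change was -0.15 ± 0.063 (limma adjusted p = 0.516), and another Atp5h probe set gave -0.022.

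Ndufb3, a further accessory subunit of the complex I membrane arm, measured 10.15, 10.50 and 10.54 in control livers, 10.20, 10.31 and 10.48 under 0.05% and 9.96, 10.25 and 10.45 under 1% quercetin. The 3 ranges overlapped, and control replicate 4 lay far below the other controls. The change for 1% against control was -0.21 ± 0.091 (limma adjusted p = 0.528), with 5 of 6 mice below the control mean.

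Sdha carries the flavin of succinate dehydrogenase, complex II, and Sdhb its iron-sulfur clusters. Sdha measured 11.54, 11.69 and 11.78 in control livers, 11.50, 11.65 and 11.70 under 0.05% and 11.35, 11.53 and 11.61 under 1% quercetin. Sdhb measured 11.34, 11.83 and 12.00 in control livers, 11.53, 11.74 and 11.91 under 0.05% and 11.35, 11.59 and 11.66 under 1% quercetin. In both genes the diets overlapped, and in Sdhb the lowest of the 18 livers was control replicate 4. The change for 1% against control was -0.16 ± 0.070 for Sdha (limma adjusted p = 0.528). It was -0.23 ± 0.11 for Sdhb (limma adjusted p = 0.579). All 6 mice on 1% lay below the control mean in both, and the 2 other Sdha probe sets gave -0.28 and -0.012.

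**Figure D2:**
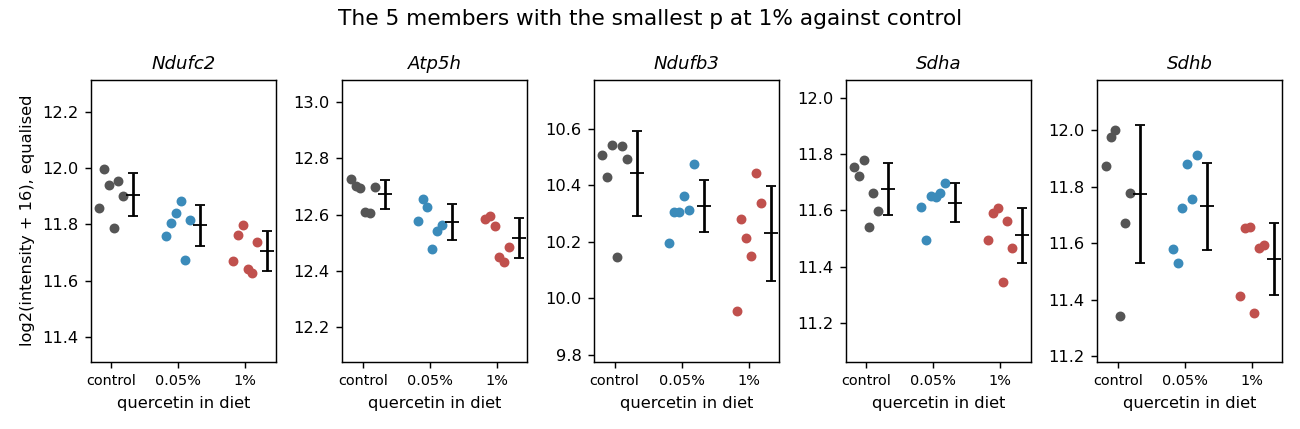
Log2 values of the 5 members with the smallest p for 1% quercetin against control, with 1 point per mouse and the mean ± SD (n = 6) beside each diet; every panel spans the same log2 range. The 1% livers sit low in each panel, and apart from Atp5h they overlap with the control livers.

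The promoters of these 5 genes are shown because their transcripts had the smallest p, and because NRF1 and the ETS factor GABP are known to drive many subunit genes. Each run is the 250 bases before the RefSeq start on assembly GRCm38.p6, 5′ to 3′ on the gene's strand. Capitals mark matches on either strand to GCGC, any 2 bases and GCGC, an NRF1-type motif, or CCGGAAG, the ETS core bound by GABP. The windows are chr7:97399753-97400002, plus strand, for Ndufc2, chr11:115419920-115420169, minus strand, for Atp5h, chr1:58586147-58586396, plus strand, for Ndufb3, chr13:74350241-74350490, minus strand, for Sdha, and chr4:140961021-140961270, plus strand, for Sdhb.
Ndufc2: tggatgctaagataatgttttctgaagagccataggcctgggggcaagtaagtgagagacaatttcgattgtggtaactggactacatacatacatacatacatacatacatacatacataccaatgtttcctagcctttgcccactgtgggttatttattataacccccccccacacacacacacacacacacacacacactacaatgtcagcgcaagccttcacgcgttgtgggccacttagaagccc
Atp5h: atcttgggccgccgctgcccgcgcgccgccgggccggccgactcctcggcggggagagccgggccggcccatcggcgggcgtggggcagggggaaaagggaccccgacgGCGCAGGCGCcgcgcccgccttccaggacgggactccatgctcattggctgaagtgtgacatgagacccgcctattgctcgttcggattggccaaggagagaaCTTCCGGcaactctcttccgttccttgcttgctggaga
Ndufb3: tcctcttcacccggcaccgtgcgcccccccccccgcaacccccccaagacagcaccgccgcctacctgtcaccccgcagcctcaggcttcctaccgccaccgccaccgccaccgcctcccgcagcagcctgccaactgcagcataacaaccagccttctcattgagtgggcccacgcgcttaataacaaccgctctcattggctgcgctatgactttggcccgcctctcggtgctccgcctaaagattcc
Sdha: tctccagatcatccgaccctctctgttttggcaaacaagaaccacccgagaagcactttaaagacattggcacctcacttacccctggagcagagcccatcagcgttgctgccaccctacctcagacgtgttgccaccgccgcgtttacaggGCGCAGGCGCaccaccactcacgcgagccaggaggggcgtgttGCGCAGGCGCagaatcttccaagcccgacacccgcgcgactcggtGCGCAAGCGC
Sdhb: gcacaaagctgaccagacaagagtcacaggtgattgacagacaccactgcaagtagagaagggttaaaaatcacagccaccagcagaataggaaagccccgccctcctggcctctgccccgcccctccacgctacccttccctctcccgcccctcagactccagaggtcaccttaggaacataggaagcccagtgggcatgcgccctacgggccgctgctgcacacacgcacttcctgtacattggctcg

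The Sdha promoter held 3 NRF1-type matches and that of Atp5h held 1, beside 1 ETS match. These letters were not in the windows of Ndufc2, Ndufb3 and Sdhb. RefSeq promoters matched 67 of the 82 members, and 13 of these (19.4%) held the NRF1-type motif, against 11.2% of 10406 tested genes and 5.64% of all 27025 genes with a promoter. The ETS core was in 12 members (17.9%), against 14.5% of tested genes. AAGATGGC, a YY1-type motif, was in 1 member, Atp5j (1.49%), and in 2.30% of tested genes. TCAAGGTCA, the site type of the estrogen-related receptors, was in 1 member, Atp5g3 (1.49%), and in 0.365% of tested genes. The 4 motifs can overlap one another, and a match is a description of the letters only.

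Complex I, the NADH dehydrogenase, had 24 of 33 members with a change below 0 for 1% against control, with a median of -0.070. Core subunits lay on both sides of 0, from -0.14 ± 0.12 for Ndufs8 to 0.096 ± 0.074 for Ndufs7, with Ndufv2 at -0.11 ± 0.073 and Ndufs3 at -0.075 ± 0.077. Ndufv1, which binds NADH and the flavin, was at 0.0011 ± 0.078 (limma adjusted p = 0.998), and Ndufs1, the largest iron-sulfur subunit, at -0.061 ± 0.095 (limma adjusted p = 0.902). Ndufb5, whose spread was nearest to the median of the complex, was at -0.10 ± 0.075. Ndufb1 had the largest SD of the complex and rested on a dim probe set (mean log2 value 6.14). Its ranges were 5.83 to 6.65 in control livers, 5.86 to 6.54 under 0.05% and 5.63 to 6.45 under 1% quercetin.

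Complex II had all 4 members below 0 for 1% against control, with a median of -0.13. Sdhc was nearly unchanged at -0.0054, with means of 10.56 in 1% livers and 10.57 in control livers. Sdhd averaged 10.74 in 1% livers and 10.83 in control livers. Complex III, which hands electrons from ubiquinol to cytochrome c, had 7 of 8 below 0, with a median of -0.071. Uqcrc1, a core protein of complex III, was at -0.12 ± 0.082 and Uqcrfs1, its Rieske iron-sulfur protein, at -0.078 ± 0.076. The small subunit Uqcr10 varied most in complex III, between 10.91 and 11.47 in control livers, between 10.89 and 11.40 under 0.05% and between 10.91 and 11.15 under 1% quercetin. The change of Uqcr10 for 1% against control was -0.13 ± 0.097 (limma adjusted p = 0.758). Uqcr11, another small subunit, was at -0.027 ± 0.080.

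Complex IV, cytochrome c oxidase, had 10 of 14 members below 0 for 1% against control. Cox4i1, its ubiquitous regulatory subunit, was at -0.016 ± 0.069 (limma adjusted p = 0.967) and Cox5a at -0.12 ± 0.067 (limma adjusted p = 0.636). Control livers were tight for Cox5a, with 12.96, 13.00 and 13.03 as lowest, median and highest. The livers on 0.05% had 12.83, 12.96 and 13.02 for Cox5a, and those on 1% had 12.78, 12.84 and 13.02. Every group overlapped. Cox7c, another subunit of the complex, rested on a dim probe set with mean log2 values from 5.80 to 5.86 in the 3 diets and was at 0.031 ± 0.11.

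The 5 tested isoforms of complex IV lay between -0.092 and 0.33 for 1% against control, 3 of them above 0. Cox7a1, the heart and muscle partner of Cox7a2, had the largest change above 0 of any member, 0.33 ± 0.17 for 1% against control (limma adjusted p = 0.624). Cox7a1 measured 5.68, 6.09 and 6.68 in control livers, 5.88, 6.47 and 6.86 under 0.05% and 6.15, 6.47 and 6.73 under 1% quercetin. All 6 mice on 1% lay above the control mean. The ranges overlapped, with only control replicates 1 and 3, at 6.68 and 6.27, above the lowest 1% liver. Cox7a2 itself was at -0.029 ± 0.067. Of 7 skeletal muscle markers 4 passed the filter and 0 of them reached an unadjusted p below 0.05, with a median of 0.17. Their summed intensity ran from 51.1 to 105 in 1% livers and from 44.2 to 85.7 in control livers. For 0.05% against control Cox7a1 was at 0.26 and the median of the muscle markers was 0.0041. The part of these markers in the Cox7a1 values was not tested.

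Cox4i2, the lung and hypoxia-inducible partner of Cox4i1, was at 0.11 ± 0.16, and Cox6a2, the heart and muscle partner of Cox6a1, at -0.092 ± 0.15, while Cox6a1 itself was at -0.077 ± 0.091. Cox6b2 was at 0.093 ± 0.25, with ranges of 3.93 to 5.39 in control livers, 4.80 to 5.19 under 0.05% and 4.20 to 5.55 under 1% quercetin. Cox8a was at -0.096 ± 0.083, with its 2 other probe sets at 0.016 and 0.049. Cox8b, the muscle partner of Cox8a in mouse, was below the filter. Cox8c, the testis partner of Cox8a, was at -0.064 ± 0.11, with its other probe set at -0.40. None of these isoforms was called, and their errors were larger than those of the ubiquitous partners in the pairs of Cox4i, Cox6a and Cox7a. Without the isoforms, 8 of 9 complex IV members were below 0 with a median of -0.078.

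Ndufa4, named for complex I but now known as a complex IV subunit, was kept out of the complex means and was at -0.018 ± 0.075. Its paralog Ndufa4l2, a hypoxia-inducible gene, was also kept out of these means and was at -0.024 ± 0.16. Cox7a2l, also kept apart, joins complexes III and IV into supercomplexes, and the C57BL/6 strains are known for a short form of its protein.

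ATP synthase had 16 of 17 members below 0 for 1% against control, with a median of -0.089. The catalytic subunits Atp5a1 and Atp5b, alpha and beta of the head, were at -0.089 ± 0.092 and -0.13 ± 0.075. The 2 other Atp5a1 probe sets gave 0.018 and 0.037. Atp5g1, Atp5g2 and Atp5g3 encode the same mature subunit c of the rotor from 3 genes, and they were at -0.14 ± 0.11, -0.077 ± 0.076 and -0.13 ± 0.071. Atp5g1 varied most in the complex, between 11.11 and 11.73 in control livers, 11.17 and 11.68 under 0.05% and 11.00 and 11.58 under 1% quercetin. Atp5mpl, a small proteolipid that copurifies with the enzyme, was at -0.13 ± 0.070. None was called, the smallest limma adjusted p of the complex being that of Atp5h.

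The 0.05% diet gave a like count with smaller changes. Against control, 64 of 79 members had a log2 change below 0 (53.9% of all tested genes did). After quantile normalization 36 of 79 were below 0 (53.1% of all genes) and the member median was 0.0079, so the direction of this count depends on how the arrays were scaled. At an unadjusted p below 0.05 in limma, 1 member was lower (2.44% of all genes) and 0 were higher (2.65%). The member median of -0.043 was -0.021 without control replicate 3, -0.072 without control replicate 4 and -0.017 with the 60th percentile filter. Leaving out 0.05% replicate 2 or control replicate 1 brought the 1 lower member to 0. The 0 higher members became 1 without control replicates 1 or 3, each left out alone. They also became 1 after quantile normalization, with a 2% trimmed mean, with the 60th percentile filter and with weighted arrays. With 1 mouse left out, between 52 and 69 of 79 members were below 0. No member had all 6 mice on 0.05% below or above all 6 controls, as 0.171% and 0.217% of all genes did. All 17 ATP synthase members were below 0, with a median of -0.053 and a range of -0.10 to -0.0033. The medians were -0.037 for complex I, -0.037 for complex II, -0.039 for complex III and -0.055 for complex IV.

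The 1 lower member was Ndufs8, a core iron-sulfur subunit that lies on the electron path to ubiquinone. Ndufs8 measured 11.48, 11.69 and 12.11 in 0.05% livers, against 11.81, 12.04 and 12.26 in control livers. The groups overlapped, and 0.05% replicate 2 was the lowest of the 18. The change was -0.29 ± 0.12 (limma adjusted p = 0.935), and the 5 other Ndufs8 probe sets were also below 0, from -0.18 to -0.045. Under 1% quercetin the change of Ndufs8 against control was -0.14 ± 0.12.

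Ndufa10, an accessory subunit related to nucleoside kinases, was the member with the next smallest p and the only one of the 5 above 0. It measured 11.54, 11.66 and 11.73 in 0.05% livers, against 11.24, 11.42 and 11.91 in control livers, a change of 0.17 ± 0.097 (limma adjusted p = 0.948). The highest Ndufa10 value was that of a control, and the other probe set gave -0.014. Ndufa13, also called GRIM19, was at -0.12 ± 0.071, Atp5j2 at -0.10 ± 0.063 and Ndufc2 at -0.11 ± 0.066.

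Between the 2 quercetin diets, 53 of 79 members were below 0 for 1% against 0.05% (49.8% of all tested genes). As deposited 69 were, beside 62.6% of all genes. The member median of -0.029 was -0.0069 without 1% replicate 4, -0.017 without 1% replicate 5 and -0.012 without 0.05% replicate 6. It was -0.048 without 1% replicates 2 or 3, -0.049 after quantile normalization, -0.053 with the 60th percentile filter and -0.077 as deposited. It was -0.019 without the filter and -0.0088 with the mean of probe sets. In limma at an unadjusted p below 0.05, 0 members were lower (3.86% of all genes) and 2 were higher (4.66%), Cox7a2l and Ndufa2. These became 0 without 0.05% replicates 1, 4 or 5 or 1% replicates 1 or 6, and 1 without 0.05% replicate 2 or 1% replicates 2 or 3, each left out alone. Cox7a2l measured 9.82, 10.12 and 10.24 in 1% livers, against 9.73, 9.87 and 10.10 in 0.05% livers, a change of 0.21 ± 0.088 (limma adjusted p = 0.536). Its 2 other probe sets gave 0.14 and 0.16. Control livers lay between, with a median of 9.95, and all 3 ranges overlapped. No member had all 6 mice on 1% below or above all 6 on 0.05%, as 0.295% and 0.388% of all genes did.

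Ndufa2, an accessory subunit of the matrix arm of complex I, measured 10.90, 11.03 and 11.09 in 1% livers, against 10.78, 10.84 and 10.97 in 0.05% livers. The change was 0.14 ± 0.065 (limma adjusted p = 0.569), with 6 of 6 mice above the 0.05% mean. Sdhb was at -0.19 ± 0.11, Atp5b at -0.12 ± 0.075 and Sdha at -0.12 ± 0.070, and all 6 mice on 1% lay below the 0.05% mean in each of the 3.

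**Figure D3:**
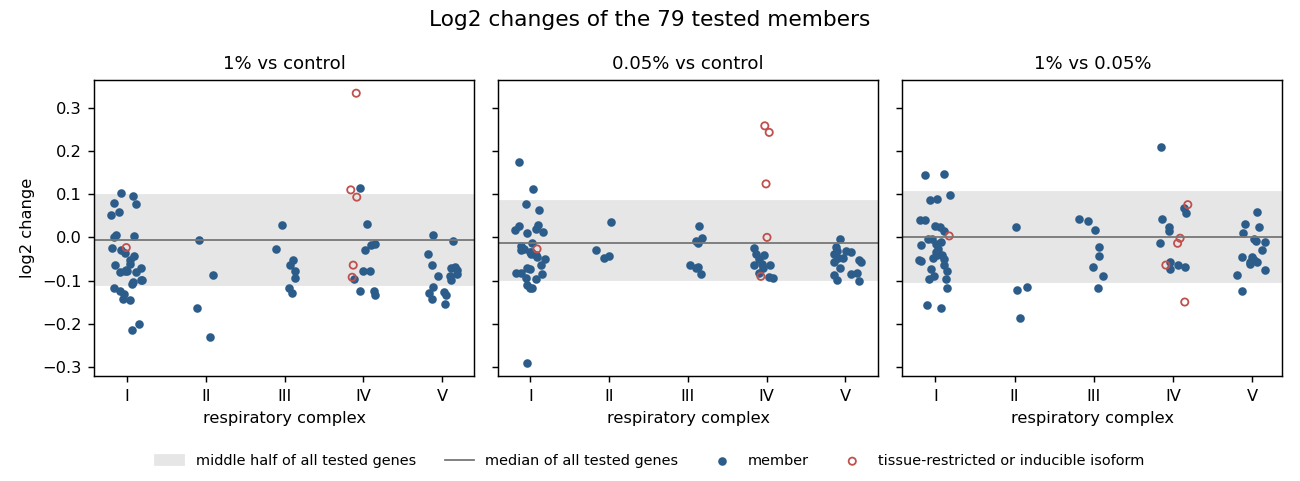
Log2 change of each of the 79 tested members by complex in the 3 comparisons, with tissue-restricted or inducible isoforms as open circles; the line is the median of all tested genes and the band runs from their lower to their upper quartile. Most members sit just below the line and inside the band, and Cox7a1 is the highest point for 1% against control, at 0.33.

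Single mice were compared through the mean deviation of each complex. It averages the tested members, without Ndufa4, Ndufa4l2 and Cox7a2l, after subtracting each one's mean over the 18 livers. Complex I averaged 0.029 ± 0.10 in control livers, -0.0046 ± 0.064 under 0.05% and -0.025 ± 0.066 under 1% quercetin (SD, n = 6 each). ATP synthase averaged 0.048 ± 0.091 in control livers, -0.0082 ± 0.059 under 0.05% and -0.040 ± 0.085 under 1%. Complex II averaged 0.048 ± 0.16 in control livers, 0.026 ± 0.11 under 0.05% and -0.074 ± 0.086 under 1%. All diets overlapped in each complex.

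The difference for 1% against control was -0.12 ± 0.074 for complex II, -0.087 ± 0.051 for ATP synthase, -0.067 ± 0.055 for complex III and -0.054 ± 0.050 for complex I (SE). It was -0.019 ± 0.046 for complex IV, and -0.072 ± 0.046 when the tissue-restricted isoforms were left out. For 0.05% against control the difference was -0.022 ± 0.079 for complex II, -0.056 ± 0.044 for ATP synthase, -0.036 ± 0.053 for complex III, -0.034 ± 0.050 for complex I and -0.0013 ± 0.033 for complex IV. After quantile normalization the 0.05% differences of all 5 complexes were above 0, from 0.00078 for ATP synthase to 0.025 for complex IV, and the 1% difference of complex IV was 0.0067, while those of the other 4 complexes for 1% stayed below 0. The whole range over the 18 mice was 0.23 to 0.41 in the 5 complexes. No p is given for these means.

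Single mice moved these differences. With 1 mouse left out, those for 1% against control ran from -0.088 to -0.028 for complex I, from -0.17 to -0.091 for complex II, from -0.099 to -0.036 for complex III, from -0.049 to 0.0041 for complex IV and from -0.12 to -0.060 for ATP synthase. Those for 0.05% against control ran from -0.068 to -0.0082 for complex I, from -0.073 to 0.015 for complex II, from -0.068 to -0.0052 for complex III, from -0.031 to 0.015 for complex IV and from -0.087 to -0.036 for ATP synthase. In complexes I and III the values nearest to 0 came without control replicate 3, and those farthest from 0 without control replicate 4, in both comparisons. ATP synthase was farthest from 0 without control replicate 4 in both comparisons, and nearest to 0 without 1% replicate 4 for 1% and without control replicate 3 for 0.05%. Complex II was lowest without control replicate 4 in both comparisons, and highest without control replicate 2 for 1% and without 0.05% replicate 2 for 0.05%. Complex IV was lowest without control replicate 6 in both comparisons, and highest, above 0, without 1% replicate 6 for 1% and without control replicate 2 for 0.05%.

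**Figure D4:**
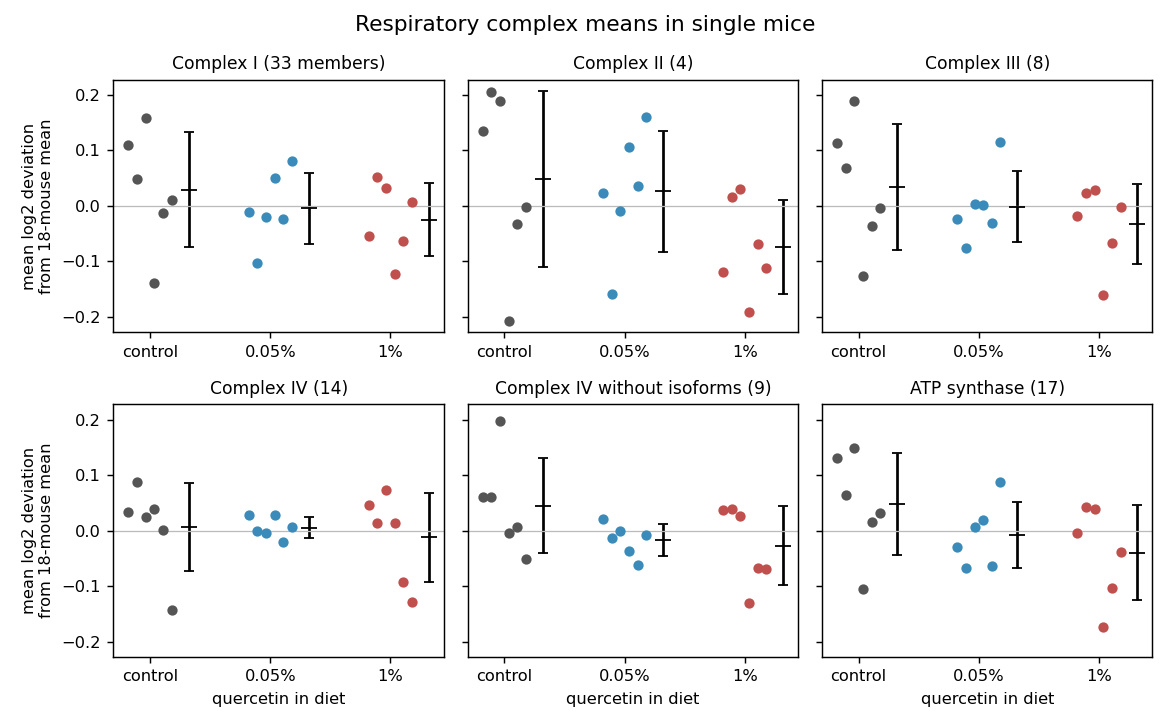
Mean log2 deviation of the tested members of each complex in single mice, by diet, with the mean ± SD (n = 6) beside the points. Ndufa4, Ndufa4l2 and Cox7a2l are left out. Control replicates span most of the range in complexes I, II and III, where the lowest or second lowest mouse is a control, and the diets overlap in each panel.

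The spread among control mice was wide. Control replicate 3 had the highest value of the 18 mice in 36 of 79 members, and its mean deviation was 0.16 for complex I, 0.19 for complex II, 0.19 for complex III and 0.15 for ATP synthase. Control replicate 4 had the lowest value in 17 members, at -0.14 for complex I, -0.21 for complex II, -0.13 for complex III and -0.10 for ATP synthase. The same diet thus held the top and the bottom mouse for complex I.

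In 1% replicate 4, 73 of 79 members lay below their own mean, and 28 had their lowest value of the 18 mice there. Its mean deviation was -0.12 for complex I, -0.19 for complex II, -0.16 for complex III and -0.17 for ATP synthase. In 0.05% replicate 2, 62 members lay below their mean and 11 had their lowest value there, while 0.05% replicate 6 was among the 3 highest mice in complexes I, II, III and V. With its isoforms included, complex IV ordered the mice in another way. Control replicate 6 was then lowest at -0.14 and control replicate 2 highest at 0.087. Without isoforms 1% replicate 4 was lowest at -0.13 and control replicate 3 highest at 0.20, as in complex III and ATP synthase. Without isoforms control replicate 4 ranked 9 of 18 from the lowest, and 0.05% replicate 6 ranked 8.

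Some other measures moved with single mice. Of 8 neutrophil markers 5 passed the filter, and their mean deviation was highest in control replicates 4 and 5, at 2.0 and 1.87, and next in 1% replicates 6 and 5, at 1.52 and 1.19. The summed intensity of the 5 ran from 304 to 6075 in 1% livers, from 111 to 5807 in 0.05% livers and from 190 to 6806 in control livers, and no deposited value was 0. At the level of diets their median log2 change was 0.18 for 1% against control. There 0 of the 5 reached an unadjusted p below 0.05 in limma (4.66% of all genes were lower and 3.87% higher). For 0.05% against control their median was -1.09, with 2 lower (2.44% of all genes). For 1% against 0.05% it was 0.81, with 2 higher (4.66%). The median log2 change of 9 hepatocyte markers was -0.096 for 1% against control, with 1 lower (4.66% of all genes). It was -0.072 for 0.05% against control, with 0 lower (2.44%). The member medians were -0.077 and -0.043. The mean deviation of these hepatocyte markers was lowest in 1% replicate 4, at -0.34, and their summed intensity ran from 76698 to 101065 in 1% livers, from 77190 to 103902 in 0.05% livers and from 86330 to 97513 in control livers. The ratio of the 3′ to the 5′ Gapdh control probe set, a measure of RNA integrity, lay between 0.80 and 1.05 and was highest in control replicates 4 and 5, at 1.05 and 1.02. The same ratio for Actb ran from 2.13 to 2.54 in 1% livers, from 1.99 to 2.33 in 0.05% livers and from 2.16 to 2.35 in control livers, and was highest in 1% replicates 3, 4 and 1, at 2.543, 2.539 and 2.501. The part of these measures in the subunit values was not tested.

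Of 8 endothelial markers, 4 were higher for 0.05% against control at an unadjusted p below 0.05 in limma (2.65% of all genes were). Their median was 0.23 and 0 were called. For 1% against control 1 was higher (3.87%), with a median of 0.075. Between the 1% and the 0.05% diet 1 was lower (3.86%), with a median of -0.16. The summed intensity of the 8 ran from 1921 to 2402 in 1% livers, from 1938 to 2274 in 0.05% livers and from 1481 to 1983 in control livers.

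Other genes of the pathway were looked at by list. None of their members was called in limma in any comparison. For 1% against control at an unadjusted p below 0.05 in limma the counts were small. By that rule 3.87% of all tested genes were higher and 4.66% lower, the shares to set beside each list. Assembly factors of the complexes had 38 tested members, of which 2 were higher and 3 lower, with a median of -0.058. Cox19, a copper-related assembly factor of complex IV, had the smallest p among them at 0.43 ± 0.16 (limma adjusted p = 0.458), and Ndufaf5, an assembly factor of complex I, followed at -0.27 ± 0.10 (limma adjusted p = 0.488). Cox19 measured 9.57, 9.85 and 10.41 in 1% livers, against 9.30, 9.46 and 9.82 in control livers.

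Of 18 electron carriers and other inner membrane proteins, 0 were higher or lower, with Cycs, cytochrome c, at -0.13 ± 0.078 and Coq3, a methyltransferase of ubiquinone synthesis, at -0.15 ± 0.091. Of 14 transcriptional regulators 2 were higher and 0 lower, with a list median of 0.071. Ppargc1a was at -0.34 ± 0.33, Nrf1 at 0.20 ± 0.12 and Gabpa at -0.044 ± 0.072. Pprc1, a coactivator related to PGC-1, was at 0.58 ± 0.25 (limma adjusted p = 0.530) and Prkaa1, a catalytic subunit of AMPK, at 0.23 ± 0.10 (limma adjusted p = 0.542). Pprc1 ranged from 6.42 to 8.18 in 1% livers, against 5.85 to 6.94 in control livers, so the groups overlapped.

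Genes of mitochondrial DNA maintenance and transcription had 12 tested members with 0 higher or lower. Lrpprc and Slirp, which stabilise mitochondrial mRNAs together, were at -0.16 ± 0.081 and -0.11 ± 0.071. Mitochondrial ribosomal proteins had 76 tested members, of which 2 were higher and 4 lower, with Mrpl9 at 0.29 ± 0.11 and Mrpl4 at -0.24 ± 0.096. The list median was -0.030 for 1% against control, against -0.077 for the oxidative phosphorylation members. For 0.05% against control it was -0.040, with the assembly factors at -0.053, against -0.043 for the members. The other list medians for 0.05% were -0.036 for mitochondrial DNA maintenance and transcription, -0.016 for electron carriers and 0.046 for transcriptional regulators.

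The choice of probe set mattered to single members. Of the 79, 46 had at least 1 other probe set above the filter. For 1% against control all probe sets shared the sign of the chosen one in 28 of the 46, and 50 of the 78 other probe sets were below 0 with a median of -0.041. For 0.05% against control all shared the sign in 24, and for 1% against 0.05% in 25.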

How the data were processed

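Liver RNA of 18 mice was hybridised to Affymetrix 3′ arrays, 1 mouse per array and 6 per diet, grouped by the sample titles. The deposited values are linear intensity, 1 signal per probe set; the signal software and scaling were not given in the sources used here. Of 45101 probe sets, 34945 had 1 gene symbol and were used, 932 had several, and 64 were controls. Values were turned to log2 after adding 16, each gene took its probe set with the highest mean, genes with a mean above the 40th percentile (4.69) were tested, and array medians were equalised by a shift. The named members are the 5 with the smallest p in each comparison, the most and the median variable one of each complex, preset core subunits and isoform pairs, and 2 genes per other list. Sdha, Sdhb and others appear under several parts of this rule. Cox7c, Cox8c, Ndufs3, Ndufs7, Ndufv2, Ndufa4, Ndufa4l2, Sdhc, Sdhd and the members compared by mouse were named after their values were seen. So were the regulators Ppargc1a, Nrf1 and Gabpa. The members and lists were chosen with earlier results of these data known. limma 3.58.1 (R 4.3.3; lmFit, eBayes) was fitted to 3 group means over 18 arrays, with 15 residual degrees of freedom and Benjamini-Hochberg adjustment over 12885 genes, two-sided. The pipeline was tested on simulated data. Alternatives were the values as deposited, quantile normalization, a 2% trimmed mean, 1 added before log2, no filter, a 60th percentile filter, eBayes with trend, weighted arrays, averaging all probe sets per gene, 12 arrays only, the replicate number as a block and leaving out each array. Leaving out the complex IV isoforms was added after seeing the data. Replicate numbers come from the titles, and same-numbered arrays of different diets did not deviate together.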

Additional observations from a re-analysis of the deposited data

Results flagged for a closer look

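Single livers stood apart from the other 5 of their diet, by Dixon's gap test, in 4 of the 117 sets of 6 values examined. Chance gives about 1 in 20. Atp5a1, the alpha subunit of the ATP synthase head, was 11.63 in 1% replicate 4, with the others on that diet between 11.88 and 12.00. Ndufa13, an accessory subunit of complex I, was 11.75 in 0.05% replicate 5, with the others between 11.86 and 11.91. Cox8a, a small subunit of complex IV, was 11.13 in 0.05% replicate 2, with the others between 11.34 and 11.46. Ndufb3, of the complex I membrane arm, was 10.15 in control replicate 4, with the others between 10.43 and 10.54. Each of the 4 was a low value. Of these mice, 1% replicate 4, control replicate 4 and 0.05% replicate 2 were also among those with the most members at their lowest value, 28, 17 and 11 of 79.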

How the results depend on the processing

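No member was called under any alternative, and the smallest adjusted p of a member in limma was 0.326. Replicate numbers did not pair the samples: correlations of same-numbered deviations ran from -0.060 to 0.23, -0.47 to 0.33 and -0.34 to 0.20 in the 3 comparisons, and 3 of 18 arrays correlated best with their own number. With the replicate number as a block the counts of genes called were 1, 0 and 0, as without it, and 0 members were called. For 1% against control the 1 gene called became 0 on the values as deposited, without the filter, with the mean of probe sets and with only the 12 arrays compared, and leaving out 1 array gave 0 to 3. For 1% against 0.05%, 10 genes were called with only the 12 arrays, and leaving out 1 array gave 0 to 1, as it did for 0.05% against control. Over alternatives other than leaving out an array, 166 complex differences moved by less than 1 SD and 2 moved by more. Both were complex IV for 0.05% against control, 0.068 with 1 added before log2 and -0.061 without its tissue-restricted isoforms. For 1% against control Ndufv1 turned to -0.050 as deposited and -0.020 with the mean of probe sets, and Cox4i1 and Cox7a2 turned to 0.018 and 0.041 after quantile normalization. Atp5j2 for 0.05% against control was 0.019 with the mean of probe sets. Leaving out 1 array spanned 0 for Cox4i1 (-0.039 to 0.011), Cox6b2 (-0.078 to 0.23), Ndufb1 (-0.13 to 0.053), Ndufv1 (-0.042 to 0.034) and Uqcr11 (-0.055 to 0.0070), all for 1% against control. The cause of these moves was not tested. For 1% against control, 10 members were lower at an unadjusted p below 0.05 with eBayes trend, 9 with the mean of probe sets, 3 after quantile normalization, 2 with only the 12 arrays, 1 without the filter and 0 as deposited, against 5. With the block 1 member, against 2, was higher for 1% against 0.05%. The member median for 0.05% against control lay between -0.072 (without control replicate 4) and -0.021 (without control replicate 3) when 1 array was left out. Dim isoforms near the filter are limited by signal over background.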
